A study of Mus musculus with 13 samples.

Results

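Gene expression was compared between 31 adult proprioceptive sensory neurons (pSNs) of cluster 5, which the study assigned to group Ib Golgi tendon organ (GTO) afferents, and 51 neurons of cluster 1, which it assigned to group Ia muscle spindle (MS) afferents. The neurons were taken by the cluster number in the authors' deposited annotation, on the 5 adult plates (replicates 1 to 5). Together they make up 82 of the 208 adult neurons of that annotation, which holds 586 neurons of all stages. The names Ia and Ib rest on the study's histology of ganglia and muscle, which the counts do not show.

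All the neurons came from dorsal root ganglia (DRG) of *PVRx3:tdT* mice of either sex, aged at least 56 days and heterozygous for *PV:Cre*, *Rx3:Flp* and the *Ai65* reporter. *Ai65* gives tdTomato where both recombinases have acted at any stage, so the label records past as well as present activity of the *PV* and *Rx3* genes. Both clusters carry the same 3 alleles, and no adult group without them was sorted. The ganglia of 6 adult animals were dissociated and viable tdTomato+ neurons were placed singly, by flow cytometry, in plates of 96 wells. The adult neurons came from fewer experiments than plates, so the 5 plates are not 5 independent preparations. Which plates and animals belong to which experiment is not given, and the p-values measure the spread between plates, which may be technical in part.

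Group Ia afferents coil around the intrafusal fibres of the muscle spindle and signal muscle length and the speed of its change, and they contact the motor neurons of their own muscle directly. Group Ib afferents end among the collagen strands of the tendon organ, in series with the muscle fibres, and signal contractile force. Their main action on motor neurons of the same muscle is through spinal interneurons. Both are large, myelinated, fast-conducting and glutamatergic.

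For each plate the Unique Molecular Identifiers (UMIs) of a cluster's neurons were added up, and the sums of the 2 clusters were compared within plates. Cluster 5 gave sums of 171132 to 476185 UMIs from 3 to 10 neurons, and cluster 1 gave 158503 to 840341 UMIs from 3 to 15 neurons. Depth per neuron was 59815 ± 10745 UMIs (SD, n = 5 plates) in cluster 5 and 61080 ± 11292 in cluster 1, and cluster 5 had the higher mean on 2 of 5 plates. Replicate 5 held 3 neurons of each cluster, and its deepest neuron gave 40.7% of the sum in cluster 5 and 40.0% in cluster 1. The 82 neurons used 54 of the 96 well barcodes, 24 of them in more than 1 neuron and none more than once on a plate. Levels are given in CPM, the counts per 1e+06 UMIs of the sum.

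Low-count genes were filtered out with edgeR, and of the 5703 genes left 661 differed between the clusters at an adjusted p under 0.05 (11.6%), and these are the genes called here. In cluster 5, 330 were higher (5.79%) and 331 were lower (5.8%), and 206 differed 2-fold or more, 116 of them higher and 90 lower. The median log2 difference of all tested genes, cluster 5 minus cluster 1, was 0.0029. Among the called genes 564 (85.3%) differed in 1 direction on all 5 plates, and of all tested genes 324 (5.68%) had plate values that did not overlap between the clusters, 153 (2.68%) higher and 171 (3%) lower in cluster 5. The clusters had been drawn by the authors from the expression of these same neurons, so the adjusted p-values describe how well the plates repeat a difference and are no independent evidence for it. The study's own subtype genes below were also chosen on these neurons.

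The genes that the study ties to GTO afferents had the higher mean level in cluster 5, although several were sparse. *Pou4f3*, a POU-domain transcription factor gene on chromosome 18, stood at 55.3, 60.9, 59.4, 57.7 and 46.7 CPM in cluster 5 on replicates 1 to 5, and at 3.57, 4.90, 0, 1.29 and 0 CPM in cluster 1. The groups did not overlap, and the level in cluster 5 varied little from plate to plate. The log2 difference was 4.54 ± 0.41 (SE, adjusted p = 1.18e-07). A *Pou4f3* UMI was found in 25 of 31 neurons of cluster 5 (80.6%, exact binomial 95% interval 62.5 to 92.5) and in 6 of 51 of cluster 1 (11.8%, 4.44 to 23.9). Such intervals cover counting error only.

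*Pcdh17* and *Pcdh8* encode protocadherins, calcium-dependent adhesion proteins. *Pcdh17* was at 15.8, 37.8, 59.4, 44.4 and 35.1 CPM in cluster 5 and at 3.57, 0, 0, 1.29 and 0 CPM in cluster 1, with UMIs in 20 and 3 neurons. It was too low for the filter, but its groups did not overlap and it was higher in cluster 5 on all 5 plates (the smallest p that the exact sign-flip test over 5 plates can give). *Pcdh8* (chromosome 14, 79766775 to 79771312, minus strand, GRCm38) was at 31.6, 88.2, 62.7, 75.4 and 64.3 CPM in cluster 5 against 0 to 8.33 CPM in cluster 1 (log2 difference 3.49 ± 0.34, adjusted p = 3.64e-07). It was the less exclusive of the pair, with UMIs in 14 of the 51 neurons of cluster 1.

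The other GTO genes were sparse, and none of them passed the filter, though all 4 were called in the edgeR fit without it (adjusted p = 0.0061 for *Itga2*). *Itga2*, a collagen-binding integrin subunit gene, had 14 UMIs in 11 neurons of cluster 5, at 5.84 to 10.5 CPM on every plate, and none in cluster 1. The 0 of 51 neurons there allows up to 5.88% of neurons with a UMI (3 of the total), which limits detection at this depth and not expression. The level in cluster 5 was at least 8.21-fold higher, taking 3 UMIs over the 5 sums as the limit for cluster 1. *Chad*, which encodes the matrix protein chondroadherin, was at 0, 21.0, 79.2, 22.2 and 23.4 CPM in cluster 5 and had 2 UMIs in cluster 1. It was the one gene of the GTO list that was missing from a plate of cluster 5, and its groups overlapped for that reason. *Npy1r*, a neuropeptide Y receptor gene, was found in 22 and 9 neurons. *Grin3a*, an NMDA receptor subunit gene, was found in 11 and 2, and overlapped, since on replicate 5 cluster 1 was the higher one (6.31 against 5.84 CPM).

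The group Ia genes showed the opposite pattern. *Calb2*, which encodes the calcium buffer calretinin (chromosome 8, 110137502 to 110168210, minus strand), was at 168, 240, 187, 220 and 429 CPM in cluster 1 and at 2.63, 4.20, 3.30, 2.22 and 0 CPM in cluster 5. Its log2 difference was -6.22 ± 0.27 (adjusted p = 3.17e-12). Yet *Calb2* was uneven among the neurons of cluster 1, where 32 of 51 had a UMI and the levels ran from 0 through a median of 27.2 to 1377 CPM. In cluster 5, 4 of 31 neurons had a UMI and the highest was at 33.7 CPM.

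*Heg1*, a mucin-like transmembrane receptor gene (chromosome 16, 33684370 to 33771576, plus strand), was found in every neuron of cluster 1, though clusters 2 and 3 held it too. It was at 120, 127, 106, 73.6 and 44.2 CPM in cluster 1 and at 10.5, 4.20, 3.30, 0 and 0 CPM in cluster 5, with no overlap. The 51 neurons of cluster 1 ran from 12.9 to 299 CPM, and 6 of 31 neurons of cluster 5 had a UMI. The log2 difference was -4.59 ± 0.34 (adjusted p = 7.52e-09), and -5.32 without replicate 1.

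*Agpat4*, an acyltransferase gene of phospholipid synthesis (chromosome 17, 12118704 to 12219645, plus strand), was at 34.5, 50.6, 50.8, 23.2 and 31.5 CPM in cluster 1, where 38 of 51 neurons had a UMI. Cluster 5 had none on any plate. The 0 of 31 neurons allows up to 9.68% of neurons with a UMI, again a limit on detection. Taking 3 UMIs over the 5 sums as the limit, *Agpat4* was at least 22.9-fold lower in cluster 5. *Calb1*, the gene of the buffer calbindin (log2 difference -2.49 ± 0.24), and *Slc17a6*, which encodes the vesicular glutamate transporter vGlut2 (-2.25 ± 0.28), fell by less and kept UMIs in 19 and 16 neurons of cluster 5. *Hpse*, the heparanase gene, and *Colq*, the gene of the collagen tail of acetylcholinesterase, were below the filter, with UMIs in 36 and 30 neurons of cluster 1 and 5 and 2 of cluster 5. Of the 7 genes on each list, 2 GTO genes and 5 group Ia genes were tested and all 7 of these were called, beside 11.6% of all genes.

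**Figure D1:**
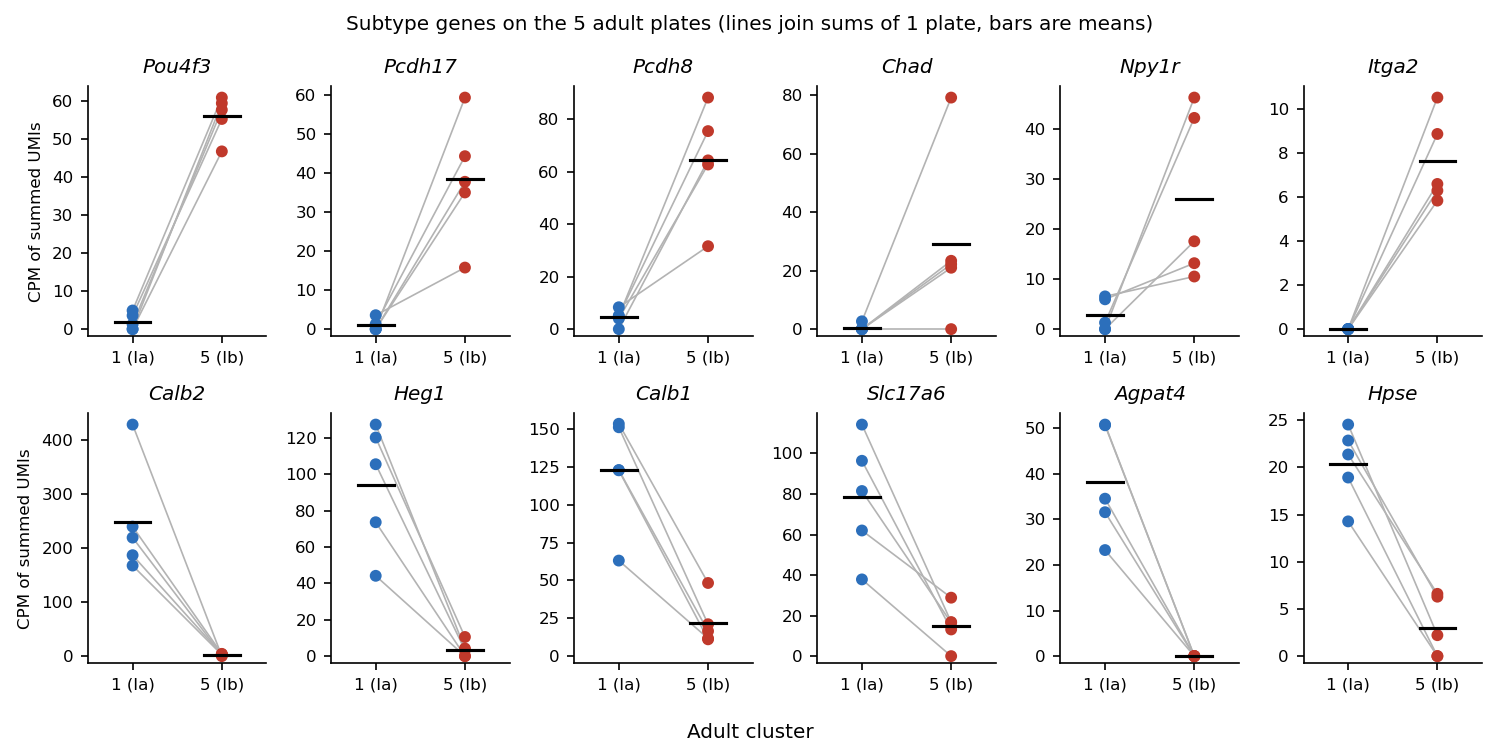
Level of 12 subtype genes, in CPM of summed UMIs on a linear axis of its own for each gene, in cluster 1 and cluster 5. Points are the sums of 1 plate, grey lines join the clusters of the same plate and black bars are means; *Pou4f3* lies between 46.7 and 60.9 CPM in cluster 5 on every plate, while *Agpat4* lies at 0 there.

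Single neurons kept to 1 side when several genes were read together. Of the 10 called genes with the largest rise by the naming rule, a neuron of cluster 5 had a UMI of 9 at the median (range 5 to 10), and a neuron of cluster 1 of 3 (range 0 to 7). Of the 10 with the largest fall, the medians were 3 (range 0 to 7) in cluster 5 and 9 (range 5 to 10) in cluster 1. All 31 neurons of cluster 5 had more of the rising than of the falling genes, and 50 of 51 neurons of cluster 1 had the reverse. These genes were picked on the same neurons, so the counts describe how complete the pattern is and test nothing.

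Pairs of markers were less complete. *Pou4f3* or *Pcdh17* was found in 28 of 31 neurons of cluster 5 and 8 of 51 of cluster 1. *Calb2* or *Heg1* was found in 8 of 31 and 51 of 51. Neurons with UMIs of both kinds numbered 6 in cluster 5 and 8 in cluster 1, and 1 neuron of cluster 5 had neither. With each neuron thinned to 7000 UMIs, *Pou4f3* was found in 35.5% of neurons of cluster 5 and 1.96% of cluster 1, so depth sets the share while the order stays.

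**Figure D2:**
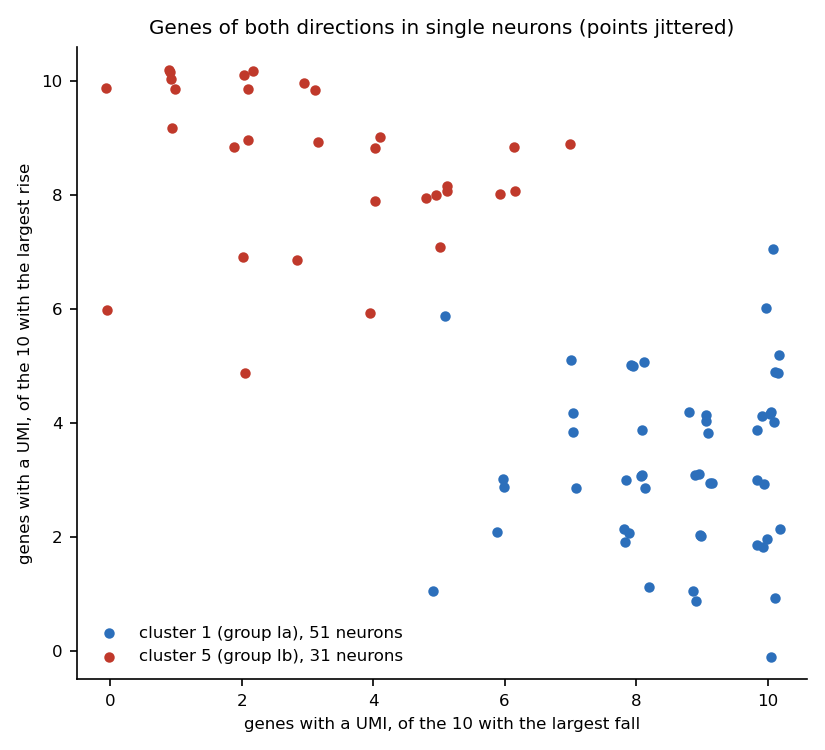
Each point is 1 neuron, placed by how many of the 10 genes with the largest fall (horizontal axis) and of the 10 with the largest rise (vertical axis) had a UMI in it, with a small random offset to part overlapping points. Neurons of cluster 5 lie at 5 to 10 rising genes and 0 to 7 falling genes, and neurons of cluster 1 at 0 to 7 rising and 5 to 10 falling genes.

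Genes that mark proprioceptors as a class were present in both clusters. Of the 10 on this list, all tested, none was called higher in cluster 5 and 5 were called lower (all genes 5.79% and 5.8%), with a median log2 difference of -0.23 beside 0.0029 for all genes. *Pvalb*, the gene of the calcium buffer parvalbumin, was at 1733 to 2256 CPM in cluster 5 and 1841 to 2612 CPM in cluster 1, overlapping groups with a log2 difference of -0.12 ± 0.06 (adjusted p = 0.198), although it was lower in cluster 5 on 5 of 5 plates. The transcription factor genes *Runx3* (-0.14), *Isl1* (0.17) and *Pou4f1* (-0.14) and the mechanotransduction channel gene *Piezo2* (0.15) were not called either, with adjusted p-values of 0.811, 0.339, 0.63 and 0.529. Their standard errors were 0.10 to 0.24, and *Pou4f1* was lower in cluster 5 on 5 of 5 plates.

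*Ntrk3*, the receptor of the survival factor NT3, was lower in cluster 5 at 447, 389, 422, 324 and 368 CPM, against 702, 589, 646, 567 and 637 CPM in cluster 1. The groups did not overlap and the log2 difference was -0.68 ± 0.08 (adjusted p = 5.15e-06). *Spp1*, which encodes the secreted matrix protein osteopontin, was at 858, 924, 865, 1542 and 1484 CPM in cluster 5 and at 1835 to 3358 CPM in cluster 1 (-1.17 ± 0.11), again without overlap. *Whrn*, the gene of the scaffold protein whirlin, fell by 1.11 ± 0.22. *Etv1*, an ETS transcription factor gene that proprioceptors depend on, fell by 0.31 ± 0.09 and *Slc17a7*, the gene of vGlut1, by 0.45 ± 0.13. Without replicate 2, 4 or 5 *Etv1* stood at -0.26, -0.32 and -0.25 and was no longer called (adjusted p = 0.182, 0.0748 and 0.0867). Without replicate 1, 2 or 4 the same went for *Slc17a7*, at -0.41, -0.32 and -0.41 (0.0979, 0.233 and 0.109).

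*Fxyd7*, which encodes a small regulator of the sodium pump, was at 355, 326, 165, 106 and 356 CPM in cluster 5 and at 6.46 to 18.9 CPM in cluster 1 (4.54 ± 0.23, adjusted p = 1.19e-11). Its high sums came from part of the neurons: 21 of 31 neurons of cluster 5 had a UMI, with a median of 31.2 and a highest level of 1181 CPM, while 27 of 51 neurons of cluster 1 had one, none above 45.8 CPM.

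On a list of sodium channels and channel-binding factors 4 of 8 tested genes were called higher and 1 lower, beside 5.79% and 5.8% of all genes, with a median of 0.58. *Scn7a*, an atypical sodium channel gene, was at 129, 168, 195, 84.3 and 123 CPM against 17.8, 4.90, 9.35, 9.04 and 6.31 CPM, with no overlap (3.73 ± 0.26, adjusted p = 2.71e-09). *Scn4b*, a β subunit gene, rose by 1.49 ± 0.16 and *Fgf13*, the gene of an intracellular channel-binding factor, by 1.41 ± 0.17, both without overlap. *Scn9a* rose by 0.85 ± 0.22. Its difference was 0.79, 0.75 and 0.70 without replicate 2, 3 or 4, where it was no longer called (adjusted p = 0.0615, 0.0601 and 0.0836).

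Voltage-gated potassium channel genes were called in both directions, 4 of 22 higher and 4 lower, beside 5.79% and 5.8% of all genes, with a median of -0.08. *Kcnip4*, *Dpp10* and *Kcnd1*, which encode 2 kinds of auxiliary subunit and a pore subunit of A-type channels, were all higher in cluster 5. *Kcnip4* was at 84.2, 67.2, 52.8, 37.7 and 46.7 CPM against 0 to 6.31 CPM (5.28 ± 0.43, adjusted p = 3.11e-08). *Dpp10* was at 75.9 to 97.4 CPM against 10.7 to 25.2 CPM (2.43 ± 0.22) and *Kcnd1* at 56.1 to 81.9 CPM against 32.3 to 45.7 CPM (0.83 ± 0.19), with no overlap for any of these genes. *Kcnd1* was not called by DESeq2 (adjusted p = 0.128) or limma (0.0767).

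*Kcnip1*, another auxiliary subunit gene of the same channels, was lower in cluster 5 (-0.66 ± 0.15), and at -0.50 without replicate 4 it was not called (adjusted p = 0.0612). The delayed rectifier genes *Kcnc1* (-0.59 ± 0.13) and *Kcnb2* (-0.44 ± 0.10) were lower as well. *Kcnc1* stood at 179 to 293 CPM in cluster 5 and 293 to 404 CPM in cluster 1. *Kcnk1*, a background potassium channel gene of another list, was lower at 149 to 187 CPM against 358 to 416 CPM (-1.16 ± 0.10, adjusted p = 1.09e-07).

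No calcium channel gene of 6 tested and no GABA receptor gene of 6 tested was called by edgeR, in either direction, nor by DESeq2 or limma, and 1 and 2 of them had an unadjusted p under 0.05 in edgeR. The log2 differences ran from -0.52 to 0.19 for the calcium channel genes and from -0.44 to 0.48 for the GABA receptor genes. Of 12 tested genes linked to mechanotransduction none was called higher and 3 were called lower (all genes 5.79% and 5.8%), *Whrn*, the acid-sensing channel gene *Asic1* (-0.68 ± 0.14) and the osmosensitive channel gene *Tmem63b* (-0.65 ± 0.12). Calcium-binding protein genes went both ways, with 5 of 16 higher and 3 lower against the same shares: beside *Calb2* and *Calb1*, *Cabp7* rose by 1.36 ± 0.22 and *S100a13* by 0.61 ± 0.08.

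Receptor genes that rose were few and large in their change. *Cnr1*, the main neuronal cannabinoid receptor gene, was at 76.3, 98.7, 59.4, 51.0 and 46.7 CPM in cluster 5 and at 0 to 4.90 CPM in cluster 1 (4.80 ± 0.37, adjusted p = 1.35e-08). *Cckar*, a cholecystokinin receptor gene, was at 23.4 to 73.2 CPM against 3.26 to 9.35 CPM (3.04 ± 0.30). These were the 2 called genes of 13 tested on a list of other receptors (all genes 5.79% higher and 5.8% lower), and neither overlapped between clusters. Of 6 tested neuropeptide genes 1 was called in each direction, against the same shares: *Adcyap1*, which encodes PACAP, rose by 1.88 ± 0.32 and *Chga*, the gene of the granule protein chromogranin A, fell by 0.61 ± 0.12. Of 5 tested glutamate receptor genes 1 was called in each direction too: the kainate receptor gene *Grik1* rose by 1.18 ± 0.30 and the AMPA receptor gene *Gria2* fell by 0.54 ± 0.17. *Grik1* stood at 1.00 and 1.06 without replicate 2 or 4, and *Gria2* at -0.37, -0.54 and -0.58 without replicate 1, 2 or 3. They were not called in these fits (adjusted p = 0.0893 and 0.0594, and 0.215, 0.121 and 0.0509).

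Of 17 tested guidance and adhesion genes 6 were called higher and 1 lower, beside 5.79% and 5.8% of all genes, with a median of 0.38. One of the 6, the secreted guidance gene *Sema3f*, stood at 0.93 and 0.83 without replicate 2 or 4 and was not called there (adjusted p = 0.0684 and 0.0831). *Kirrel3*, an immunoglobulin-superfamily adhesion gene (chromosome 9, 34485894 to 35036716, plus strand), was at 55.3, 58.8, 66.0, 73.2 and 52.6 CPM in cluster 5 and at 0, 3.26, 1.34, 1.29 and 0 CPM in cluster 1. UMIs were found in 29 of 31 and in 4 of 51 neurons (5.36 ± 0.42, adjusted p = 1.50e-08). The axon guidance receptor genes *Robo2* (2.45 ± 0.34) and *Plxna2* (0.90 ± 0.19) rose without overlap. *Rgma*, the gene of a repulsive guidance ligand, fell by 2.12 ± 0.50, from 22.9 to 44.2 CPM in cluster 1 to 0 to 17.7 CPM in cluster 5.

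Among cadherins *Pcdh8* and *Pcdh11x* were higher (3.49 and 3.41) and 3 of 13 tested genes were lower, beside 5.8% of all genes, each by less, such as *Pcdh10* (-1.22 ± 0.32), which stood at -0.98 and -1.07 once replicate 2 or 3 was left out and was not called then (adjusted p = 0.0916 and 0.0557). The others, *Pcdh7* and *Pcdh9*, were not called without replicate 2 either (0.295 and 0.123), and DESeq2 called none of the 3 (0.0805, 0.433 and 0.367). Of 24 tested synapse organizer genes 5 were called higher and 2 lower, beside 5.79% and 5.8% of all genes. *Cbln2*, a secreted organizer gene on chromosome 18, was at 42.9 to 76.0 CPM against 1.63 to 15.5 CPM (2.69 ± 0.34), and *Lrrtm3*, a postsynaptic adhesion gene, was lower by -1.17 ± 0.23, though not called by DESeq2 (adjusted p = 0.0766) or limma (0.118). *Timp2*, which encodes an inhibitor of matrix metalloproteinases (chromosome 11, 118301069 to 118355740, minus strand), had the smallest adjusted p of the named genes. It was at 547, 693, 446, 577 and 643 CPM in cluster 5 and at 42.8, 40.8, 25.4, 32.3 and 31.5 CPM in cluster 1 (4.01 ± 0.12, adjusted p = 5.74e-15). All 31 neurons of cluster 5 held it at 160 CPM or more, while the highest of cluster 1 was at 145 CPM.

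Of 39 tested genes of transmitter release 3 were called higher, a share near that of all genes (5.79%), and 8 lower, beside 5.8% of all genes, with a median of -0.07. *Cpne6*, a calcium-dependent membrane-binding copine gene, was at 366, 321, 485, 501 and 427 CPM against 50.0, 44.1, 40.1, 72.3 and 88.3 CPM (2.94 ± 0.14, adjusted p = 6.25e-12). The groups were far apart on every plate. *Rph3a*, which encodes the vesicle protein rabphilin, rose by 0.68 ± 0.11, and *Sv2a*, a synaptic vesicle protein gene, fell by 1.14 ± 0.16.

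Of 38 tested transcription regulators 8 were called higher and 8 lower, beside 5.79% and 5.8% of all genes. *Id3* and *Id2* encode inhibitors of helix-loop-helix factors, which lack a DNA-binding domain. *Id3* was at 31.6, 48.3, 109, 129 and 134 CPM against 0 to 8.01 CPM (4.62 ± 0.33, and 5.27 without replicate 3), and *Id2* at 29.2 to 67.2 CPM against 0 to 8.16 CPM (3.02 ± 0.30). *Maf*, a leucine-zipper factor gene, was lower at 197, 153, 69.3, 35.5 and 64.3 CPM against 403, 477, 199, 220 and 196 CPM (-1.57 ± 0.16). Its values in cluster 5 on replicates 1 and 2 were close to those in cluster 1 on replicates 3 to 5, so the groups touched although each plate alone showed the difference. *Shox2* (-1.15 ± 0.14) and *Spry2* (-1.17 ± 0.22) had the same split of levels by plate. Of 4 tested *Hox* genes 1 was called, *Hoxc8*, at 11.1 to 25.2 CPM in cluster 5 and 47.6 to 78.3 CPM in cluster 1 (-1.83 ± 0.25).

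**Figure D3:**
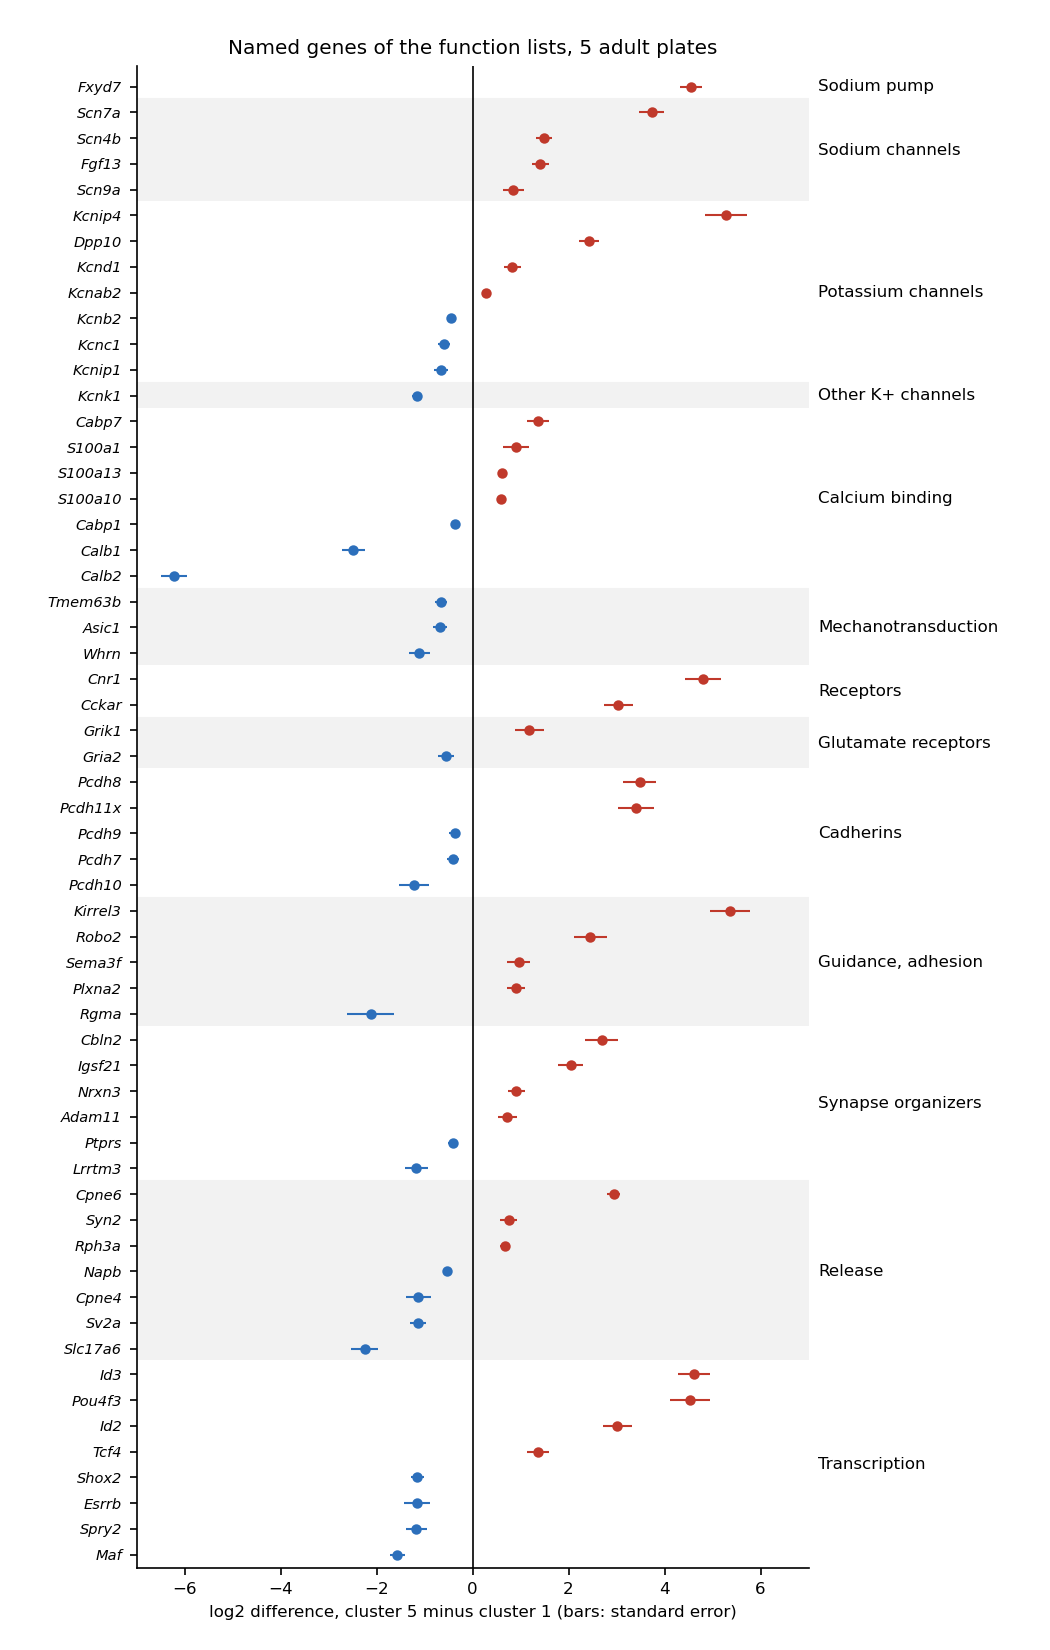
Log2 difference, cluster 5 minus cluster 1, of called genes of the function lists over the 5 adult plates, with bars of 1 standard error. Red points were higher and blue points lower in cluster 5; *Kirrel3* lies highest at 5.36 and *Calb2* lowest at -6.22.

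Of 38 tested filament and cytoskeleton genes 7 were called higher and 4 lower, beside 5.79% and 5.8% of all genes. *Ina*, the gene of α-internexin, was at 161, 130, 271, 166 and 199 CPM in cluster 5 and at 23.8, 62.0, 6.68, 11.6 and 31.5 CPM in cluster 1 (2.86 ± 0.34, and 3.63 without replicate 2). *Tagln3*, an actin-associated protein gene, rose by 1.55 ± 0.09. *Nefm* (-0.38 ± 0.06) and *Nefh* (-0.33 ± 0.06), genes of the medium and heavy neurofilament proteins, were slightly lower, and *Vim*, the vimentin gene, fell by 1.45 ± 0.23.

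The rest of the falling genes by the naming rule were *Rasd2*, a small GTPase gene (-2.99 ± 0.30), *Chn2*, a Rac GTPase-activating protein gene (-2.77 ± 0.39, and -3.53 without replicate 4), *Prmt8*, a neuronal arginine methyltransferase gene (-2.71 ± 0.43, and -3.67 without replicate 4), and the genes of the tetraspan membrane proteins *Lhfpl1* (-2.31 ± 0.21) and *Tspan33* (-2.31 ± 0.32). *Lhfpl1* was at 145 to 183 CPM in cluster 1, in all 51 neurons, and at 5.84 to 53.2 CPM in cluster 5. The last of the rising genes was *Resp18*, which encodes a protein of endocrine secretory granules, at 92.1, 212, 327, 526 and 386 CPM against 5.34 to 16.8 CPM (4.41 ± 0.27). Part of the neurons carried its sums, with UMIs in 22 of 31 neurons of cluster 5, a median of 38.7 and a highest level of 1683 CPM, and in 24 of 51 of cluster 1. None of the genes of this paragraph overlapped between the clusters.

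Of 57 tested ribosomal protein genes 4 were called higher, a share near that of all genes (5.79%). None was called lower, beside 5.8% of all genes, and the median was 0.16. Without replicate 3 *Rpl13*, *Rpl32* and *Rpl37a* were not called (adjusted p = 0.0523, 0.0975 and 0.0562), which leaves *Rps18*, and DESeq2 called none of the 4 (0.051 for *Rps18*). Their summed level was 14155 to 15136 CPM in cluster 5 and 11956 to 14373 CPM in cluster 1, higher in cluster 5 on 5 of 5 plates (the smallest p that the exact sign-flip test over 5 plates can give). Of 71 tested genes of oxidative phosphorylation none was called higher and 7 were called lower, beside 5.79% and 5.8% of all genes, with a median of -0.02.

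Markers of other ganglion cells were low or alike. The summed level of 18 satellite glia and Schwann cell markers was 129 to 707 CPM in cluster 5 and 209 to 800 CPM in cluster 1, and 11 of them had the higher mean in cluster 5. *Dcn*, the decorin gene, on the fibroblast list, was the exception, at 47.4, 58.8, 106, 109 and 64.3 CPM in cluster 5 and 8.16 to 44.2 CPM in cluster 1 (2.66 ± 0.29, adjusted p = 1.42e-06). The other 9 fibroblast markers together were at 3.30 to 26.6 CPM in cluster 5 and 14.2 to 31.5 CPM in cluster 1, with *Col3a1*, *Pdgfra*, *Mgp* and *Fbln1* at 0 in both. Immune markers summed to 8.40 to 23.1 CPM against 4.90 to 15.5 CPM, with *Ptprc*, *Cd68*, *C1qa*, *Aif1* and *Csf1r* at 0, and 9 vascular markers to 2.10 to 7.90 CPM against 0 to 7.14 CPM, with *Cldn5*, *Cdh5*, *Flt1*, *Kdr*, *Ly6c1* and *Pdgfrb* at 0. Both of these sums were higher in cluster 5 on 5 of 5 plates, and their part in the results was not tested. Markers of other DRG neurons reached 23.4 CPM in cluster 5 and 50.5 CPM in cluster 1, and *Scn10a*, *Prdm12*, *Th* and *Trpm8* were among those at 0 in both.

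The 3 remaining numbered adult clusters, which the study links to group II MS afferents, show which side of a difference is the unusual one. Adult neurons that the annotation marks as excluded have no cluster number and were not used. Clusters 2 to 4 gave 8 sums, set beside the plates of clusters 5 and 1 as a description, without a test. Every plate of cluster 5 lay above all 8 for *Pou4f3*, *Pcdh17*, *Npy1r*, *Itga2*, *Timp2*, *Id3*, *Id2*, *Cpne6* and *Dcn*. *Timp2*, for example, did not exceed 269 CPM in clusters 2 to 4. For *Kirrel3*, *Cbln2*, *Dpp10*, *Robo2* and *Ina* it was cluster 1 that lay apart, each plate below all 8, and *Ina* was at 247 to 448 CPM in them.

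The falling genes divided in the same way. Each plate of cluster 1 lay above all 8 sums for *Calb2*, *Calb1*, *Slc17a6*, *Agpat4*, *Hpse*, *Ntrk3*, *Spp1*, *Maf*, *Hoxc8* and *Tspan33*. Each plate of cluster 5 lay below all 8 for *Heg1*, *Chn2*, *Prmt8*, *Lhfpl1* and *Kcnk1*. *Heg1* was thus no gene of cluster 1 alone, since its mean was 263 CPM in cluster 2, 120 CPM in cluster 3 and 26.5 CPM in cluster 4. *Kcnip4*, *Scn7a*, *Cnr1*, *Fxyd7* and *Resp18* overlapped with clusters 2 to 4 in both cases, and *Cnr1* had a mean of 151 CPM in cluster 4.

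The adult plates fall into replicates 1 and 2 and replicates 3 to 5, which differ in the level of genes such as *Maf*. An interaction of the set with the difference between the clusters was called for 10 of 5703 genes (0.175%), of which *Tmsb10*, *Rimklb* and *Ctnnbl1*, named here after their values were seen, were also called between the clusters. Of 621 called genes tested in both sets 619 had the same sign in each, and 194 were called in each set alone.

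The same measure was taken at postnatal day 12 (P12), in neurons that the adult clustering did not use, from 4 mice of the same alleles. The authors drew the P12 clusters from the expression of these P12 neurons. The P12 adjusted p-values are therefore no independent evidence for a difference either. The P12 clusters were matched by 2 genes alone, cluster 3 for the highest *Pou4f3* (37.5 and 70.6 CPM) and cluster 2 for the highest *Calb2* (1119 and 1884 CPM), so the levels of these 2 genes are a description. Both clusters lay on P12 replicates 1 and 2, with 7 and 10 neurons in cluster 3 and 5 and 3 in cluster 2, which leaves 1 residual degree of freedom. On the other 2 P12 plates cluster 5 held *Calb2* at 267 and 720 CPM, and it was not compared because it shares no plate with cluster 3. Of 5513 genes tested 228 were called (4.14%), 121 higher (2.19%) and 107 lower (1.94%) in cluster 3. Without replicate 1 the count was 132 and without replicate 2 it was 385, with the spread pooled over the other P12 clusters.

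Most adult differences had the same sign at P12. Of 605 genes called in the adult and tested at P12, 520 (86.0%) kept their sign, against 59.9% of 4454 genes not called in the adult. The genes higher in the adult had a median log2 difference of 0.52 at P12 and the lower ones of -0.57. Called at both ages were 147 genes, 24.3% of the adult calls and 73.1% of the P12 calls that were tested at the other age, 73 higher and 72 lower in both. *Prune2*, named here after its values were seen, and *Rph3a* were called in opposite directions. *Rph3a* was at 72.3 and 147 CPM in P12 cluster 3 and at 277 and 247 CPM in P12 cluster 2 (-1.31 ± 0.27). Across the 605 genes Pearson's r was 0.78, a description over genes that are not independent.

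Named genes that were called at P12 too included *Kirrel3*, at 107 and 93.4 CPM against 9.79 and 0 CPM (3.92 ± 0.55, adjusted p = 0.00137). *Cbln2* was at 287 and 183 CPM against 4.90 and 0 CPM (6.12 ± 0.49). *Chad*, too low for the adult filter, was at 53.6 and 51.9 CPM against 4.90 and 0 CPM (3.89 ± 0.71, adjusted p = 0.00717). None of these 3 genes overlapped between P12 clusters 3 and 2. *Cbln2* and *Kirrel3* were not particular to P12 cluster 3, however. P12 clusters 1 and 4, on replicates 3 and 4, had means of 309 and 197 CPM for *Cbln2*. Their means for *Kirrel3* were 81.4 and 57.5 CPM, and P12 cluster 5 was at 0 CPM for both genes.

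On the group Ia side *Agpat4* (-3.06 ± 0.62), *Calb1* (-3.00 ± 0.60), *Hpse* (-3.18 ± 0.55), *Heg1* (-1.83 ± 0.38) and *Slc17a6* (-1.47 ± 0.29) were called, as were *Ntrk3* (-1.01 ± 0.13), *Spp1* (-2.27 ± 0.19) and *Maf* (-1.81 ± 0.27). *Pcdh17* was not apart at P12, at 42.8 and 35.3 CPM against 49.0 and 0 CPM (0.51 ± 0.60, adjusted p = 0.749). *Prmt8* and *Whrn*, both called lower in the adult cluster 5, had P12 differences of -0.07 ± 0.40 and 0.01 ± 0.39, and neither change with age was called (adjusted p = 0.0701 and 0.476).

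**Figure D4:**
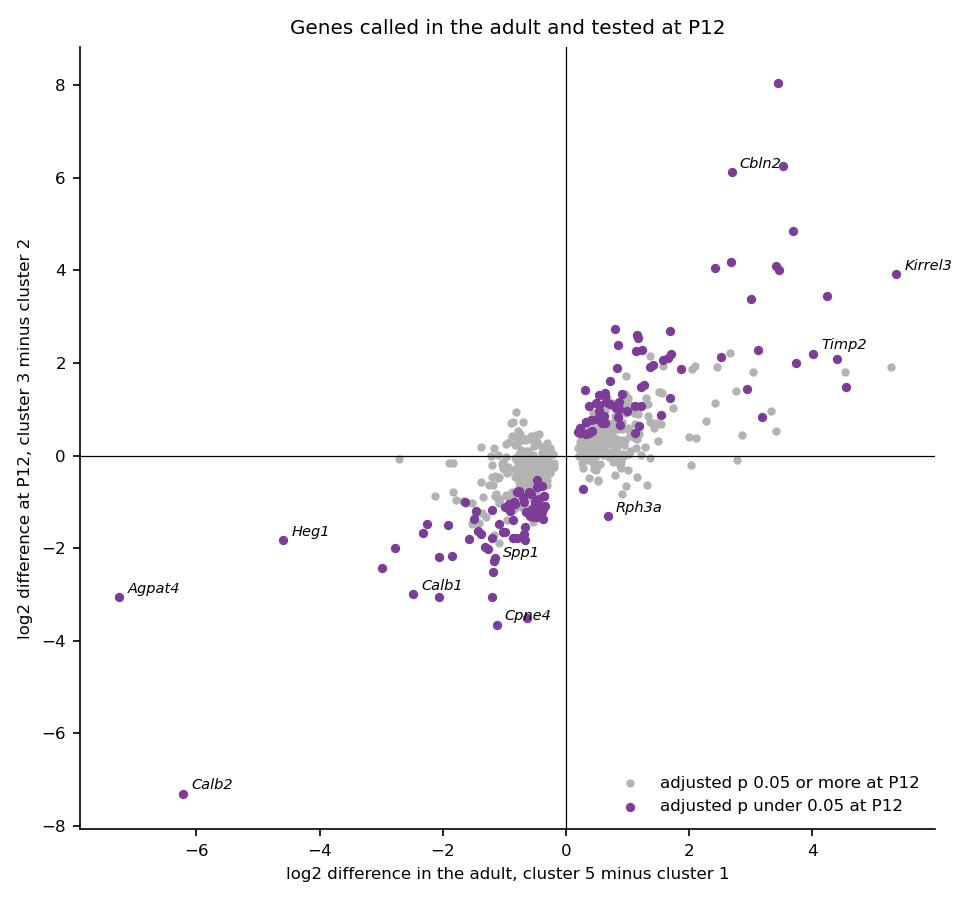
Log2 difference at P12, cluster 3 minus cluster 2 (vertical axis), against that in the adult, cluster 5 minus cluster 1 (horizontal axis), for the 605 genes called in the adult and tested at P12. Purple points are the 147 genes called at both ages; most points lie in the lower left and upper right parts of the plot, and *Rph3a* lies at 0.68 in the adult and -1.31 at P12.

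The size of the difference changed between P12 and the adult for 40 of 7295 genes tested together (0.548%), among them 10 named genes. *Fxyd7* changed most among these. P12 cluster 2 held it at 649 and 473 CPM and P12 cluster 3 at 1845 and 1291 CPM, a log2 difference of 1.47 ± 0.12 (P12 minus adult -3.08, adjusted p = 2.02e-06). *Ina* was at 399 and 505 CPM against 455 and 191 CPM, a difference of 0.44 ± 0.27 at P12 beside 2.86 in the adult. *Timp2* (-1.81), *Cpne6* (-1.49) and *Resp18* (-2.32) had likewise smaller differences at P12 by these log2 amounts. *Heg1* was less apart at P12 (2.76), where cluster 3 held it at 16.1 and 35.3 CPM, against 3.61 ± 4.31 CPM (SD, n = 5 plates) in adult cluster 5. *Spp1* (-1.10), *Nefh* (-0.76) and *Map7d2*, a microtubule-associated protein gene (-0.71), were further below the comparison cluster in P12 cluster 3 than in adult cluster 5.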

How the data were processed

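Single tdTomato+ DRG neurons were sequenced by Plate-seq. Per the labels and the study's methods, the authors used STAR with mm10 and NCBI gene models, and the deposited values are whole-number UMI counts per gene and well, without normalization. The authors' annotation gave each kept neuron's plate and cluster. UMIs were summed per cluster and plate (at least 2 neurons) and tested in R 4.3.3 by edgeR's quasi-likelihood method (version 4.0.16), after filterByExpr and TMM, with plate as a block. Genes were called where the p adjusted by Benjamini-Hochberg was under 0.05. Adjusted p-values are from this test. The clusters of a plate share its library and animals, and their deviations from the cluster means correlated on each plate (r = 0.50, 0.58, 0.23, 0.32 and 0.26 on replicates 1 to 5, where the highest r with the other cluster on a different plate was 0.42, 0.47, 0.23, 0.25 and 0.19). P12 sums were fitted likewise. One fit of adult and P12 sums tested the change of the difference with age, and one of the adult sums tested the plate sets; these comparisons were chosen after seeing the data.

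Each adult plate held 2717982 to 4202745 UMIs in all wells, and the 82 neurons held 21844 to 128341 UMIs each. All neurons of both clusters were used, and other clusters entered only where named. The members, gene lists and tests were chosen with earlier results of these data known. Named are all subtype and shared proprioceptor genes, up to 4 called genes of largest change per direction in each other list, and the 10 largest rises and falls with a mean of at least 20 CPM in the higher cluster and the same direction on all plates, predicted genes skipped; not all are described, and a few genes are not reported here. Of 112 named genes 105 were tested and 100 called. Coordinates are from GENCODE vM21 (GRCm38). Use of strand in the counting is not given in the sources used here, so genes whose exons overlap another gene (among those described *Pcdh8*, *Heg1*, *Colq*, *Kcnip4*, *Kcnk1*, *Scn9a*, *Cabp7*, *Tmem63b*, *Pcdh10*, *Rgma*, *Maf*, *Shox2*, *Ina*, *Nefm*, *Resp18*, *Chn2* and *Prmt8*) may share reads with it.

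Alternatives were no block, DESeq2 1.42.0, DESeq2's size factors, no filter, neurons thinned to 7000 UMIs, all 5 clusters in 1 fit, limma 3.58.1 on mean log2(CPM + 1), plate subsets and each plate left out. On simulated data for the adult comparison (5703 genes) the fit recovered 83% of genes changed 2-fold and 95% of those changed 4-fold. Of its calls 2.20% were false. For P12 (5513 genes) the values were 48%, 92% and 4.11%. The simulated counts followed the real plate means and dispersions, with independent plates and with clusters set without regard to expression. These rates therefore do not cover clusters drawn from the same expression, or plates that share an experiment. Python 3.11.15, numpy 2.4.6, pandas 2.3.3, scipy 1.17.1 and matplotlib 3.10.9 were used.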

Additional observations from a re-analysis of the deposited data

Results flagged for a closer look

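In 14 of 218 groups of 5 plates (the named genes, UMIs and genes per neuron in each cluster), 1 plate lay far from the others, where chance gives about 5%; 8 of the 14 were in replicate 5, which has 3 neurons per cluster. In cluster 1 the high plates were replicate 5 for *Calb2* (429 CPM), *Dcn* (44.2 CPM), *Igsf21* (56.8 CPM), *Kcnip4* (6.31 CPM) and *Grin3a* (6.31 CPM), and replicate 3 for *Bcan* (28.0 CPM) and *Chad* (2.67 CPM). The low plates of cluster 1 were replicate 5 for *Rpl13* (56.8 CPM) and replicate 4 for *Pcdh9* (212 CPM). In cluster 5 the high plates were replicate 2 for *Calb1* (48.3 CPM) and *Spry2* (193 CPM), replicate 4 for *Pcdh10* (35.5 CPM) and replicate 5 for *S100a1* (111 CPM), and replicate 5 was low for *Bcan* (5.84 CPM). The values of *Grin3a*, *Kcnip4* and *Chad*, and that of *Bcan* in cluster 5, rest on 1 or 2 UMIs.

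The difference between the clusters itself differed between P12 and the adult for 40 genes, by the interaction term of edgeR. For the named ones the log2 difference at P12 minus that in the adult was -3.08 for *Fxyd7*, -2.39 for *Ina*, -2.32 for *Resp18*, -1.98 for *Rph3a*, -1.81 for *Timp2*, -1.49 for *Cpne6*, -1.10 for *Spp1*, -0.76 for *Nefh*, -0.71 for *Map7d2* and 2.76 for *Heg1*.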

How the results depend on the processing

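The count of 661 adult genes was 225 with no replicate block, 268 with DESeq2, 409 with limma on mean log2(CPM + 1), 319 in replicates 3 to 5 alone and 62 of 1096 tested genes with neurons thinned to 7000 UMIs. It was within 1.5 times with DESeq2's size factors (669), without the filter (914 of 21830), with all 5 clusters in 1 fit (712), in replicates 1 and 2 alone (558) and with 1 plate left out (446 to 631). The P12 count of 228 was 124 with no replicate block, 34 with DESeq2, and 132 to 385 with 1 plate left out. The difference in UMIs per neuron was -3501 to 1677 with 1 plate left out and -390 for medians. Of the 100 named genes called, none changed sign in any alternative it was fitted in, 43 stayed called in all of them and 27 lost the call without 1 plate. Thinned neurons left 42 of the named genes to test, of which 17 kept their side of the threshold. Among the genes described, DESeq2 did not call *Etv1*, *Slc17a7*, *Kcnd1*, *Kcnip1*, *Kcnb2*, *Scn9a*, *Grik1*, *Gria2*, *Pcdh10*, *Sema3f* and *Lrrtm3*. It did not call *Pcdh7*, *Pcdh9*, *Rps18*, *Rpl13*, *Rpl32* and *Rpl37a* either. Genes that limma did not call included *Adcyap1*, *Rph3a*, *Slc17a7*, *Kcnd1*, *Grik1*, *Gria2*, *Sema3f*, *Lrrtm3*, *Pcdh9*, *Rpl13*, *Rpl32* and *Rpl37a*. *Kcnc1*, *Chga*, *Plxna2*, *Maf*, *Spry2*, *Shox2*, *Map7d2*, *Nefm* and *Nefh* were among those not called with no replicate block. The causes of these changes were not tested. Low genes such as *Itga2*, *Chad* and *Grin3a* are limited by depth, with at most 48 UMIs in cluster 5, and no animal is known for any plate.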

Other observations

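At birth (P0) the neurons formed 3 clusters on 2 plates, given here as values without a test. *Pou4f3* was at 151 and 141 CPM in P0 cluster 2, at 32.2 and 31.1 CPM in cluster 1 and at 0 and 10.8 CPM in cluster 3. *Chad* was at 39.2 and 20.2 CPM in P0 cluster 2, at 4.60 and 1.73 CPM in cluster 1 and at 0 in cluster 3. *Calb2* was at 0 to 10.8 CPM in these clusters.

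*Fxyd7* was abundant in every P0 cluster, at 1601 to 2453 CPM and in every neuron, against 6.46 to 18.9 CPM in the adult cluster 1. *Kirrel3* was likewise present in all P0 clusters, at 81.2 to 173 CPM, as was *Agpat4*, at 24.2 to 47.6 CPM, which had no UMI in the adult cluster 5.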
